A study of Mus musculus with 6 samples.

Results

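The collagen and laminin genes of the mouse were taken as the genes of the deposited count table whose symbol is that of a collagen chain (Col, a number, the letter a, a number) or of a laminin chain (Lama, Lamb or Lamc and a number). The rule used the symbols and no measured value. It gave 55 of the 52390 genes listed, 44 collagens and 11 laminins. Of these, 53 passed the filter on low counts that left 21844 genes tested, and *Col10a1* and *Col28a1* did not. The libraries were made from brain tissue of wild-type male C57BL/6 mice, which the study describes as medial prefrontal cortex (mPFC) in its results and as cortical tissue in its methods. A recombinant adeno-associated virus (rAAV) was injected into the mPFC at 8 weeks of age. In 3 *AP1AR-DT*-overexpressing (OE) mice the virus carried *AP1AR-DT*, a human long non-coding RNA named *AC109347.1* in the labels, behind a neuronal promoter, that of human synapsin I. In 3 control mice it was an empty vector, and both vectors express EGFP from a CMV promoter. Behaviour was tested from 3 weeks after injection, and the age at tissue collection is not given in the sources used here. The RNA came from all cells of the tissue piece, neurons, vessels, meninges and glia together. Which of them took up the virus cannot be told from these counts. *AP1AR-DT* has no mouse counterpart in the table, so the overexpression itself could not be checked in these counts. Controls are numbered 1 to 3 as in the labels, and the OE libraries are called A, B and C because their columns could not be matched to single mice.

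Collagens are triple-helical proteins in which glycine returns at every step of a repeated triplet of residues. In the brain they are sparse and lie mostly in the basement membranes of vessels, in the meninges and in the choroid plexus, while a few membrane-bound collagens are made by neurons. Laminins are cross-shaped trimers of an alpha, a beta and a gamma chain that form the first sheet of a basement membrane, onto which type IV collagen is then built. Vascular cells, astrocytes and meningeal fibroblasts make most of the laminin of the adult brain.

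No collagen or laminin gene passed an adjusted P under 0.05 (edgeR, over all genes tested) between OE and control mice. At the thresholds of the study (P under 0.05 and a log2 fold change, log2FC, past 0.32), *Col8a1* and *Col8a2*, the chains of the network-forming type VIII collagen, were lower in OE mice, and none was higher. Both were highest in control 3, the library in which the choroid plexus markers were also high, and neither passed without that library. The log2FC of *Col4a1*, *Col4a2*, *Lamb1*, *Lamb2* and *Lamc1*, the most abundant basement membrane chains, was within 0.30 in either direction. That of the laminin alpha chains *Lama2*, *Lama4* and *Lama5* was -0.47, 0.69 and -0.38. The value of *Lama4* (SE 1.05) came with 0 counts in control 1, and that of *Lama5* was -0.10 without control 3. The spread between mice of one group was larger for collagen and laminin genes than for most genes, with a median standard deviation (SD) of 0.549 on the log2 scale for the 53 members tested and 0.250 for all genes tested.

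The libraries held 42061721 to 54668294 counts in all, of which collagen and laminin genes took 0.0380% to 0.0452%, that is 16086 to 23306 counts. The tissue was checked with marker lists. The summed level of 14 choroid plexus markers was 5239 in control 3 and between 118 and 160 in the other libraries (CPM, a count relative to the normalized size of its library), and all 14 were highest there. *Ttr*, which codes for the thyroid hormone carrier transthyretin and is the defining transcript of choroid plexus epithelium, stood at 3428 CPM in control 3 and between 1.06 and 5.43 in the others. *Kcnj13* and *Slc4a5* were at 0 in both other controls and in OE library A. Of the 12 choroid plexus markers tested 8 passed the thresholds downward, and their median log2FC was -2.73 with control 3 and -0.23 without it. Ependymal markers were highest in control 3 for 6 of 6 genes. Markers of cortical excitatory neurons differed between libraries as well, with *Slc17a7*, the vesicular glutamate transporter of cortical neurons, between 3.86 CPM in control 2 and 463 in OE library B, and the summed level of 7 striatal markers ran from 190 in control 2 to 1576 in OE library A. The part of these marker differences in the results below was not tested. In such bulk tissue, fewer cells of a type and less RNA per cell cannot be told apart.

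The genes share a gene structure that bears on how well they were counted. Fibril-forming collagen genes are cut into many short exons of 54 bases, which can each hold 6 repeats of the Gly-X-Y triplet. Coding exons of 54 bases number 24 in *Col1a2* and 14 in *Col9a3*, but only 2 in *Col4a1* and 0 in *Col8a1*. The exons shown here are 1 of *Col1a2* (GRCm38 chr6:4515481-4515534, plus strand) and 1 of *Col9a3* (chr2:180601582-180601635, plus strand), beside the first 54 bases of the longest repeat run of *Col8a1* (chr16:57628039-57628092, minus strand), which lies in 1 long exon. They are shown because the short-exon and the long-exon layout are what separates type VIII from most other collagens. The glycine codon (GGN) that opens each triplet is in capitals, and the sequences are from the reference genome with GENCODE vM21 exons.
Col1a2 exon: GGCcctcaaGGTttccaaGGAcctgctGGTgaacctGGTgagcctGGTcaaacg
Col9a3 exon: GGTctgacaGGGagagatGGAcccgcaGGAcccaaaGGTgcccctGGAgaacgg
Col8a1 part of an exon: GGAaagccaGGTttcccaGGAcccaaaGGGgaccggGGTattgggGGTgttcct

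In all 3 a GGN codon opens every triplet. The longest unbroken run of such triplets was 339 in *Col1a2*, spread over 44 exons, and 338 in *Col1a1*, spread over 43. It was 61 in *Col8a1* and 60 in *Col8a2*, each within 1 exon, and 2 or 3 in the laminins, which have no collagen helix. The median exon of the median member was 72 bases long (61.5 for collagens, 147.5 for laminins) and that of protein-coding genes tested 153. For 18 of 55 members the median exon was exactly 54 bases, and for 47 of 55 it was shorter than the 150-base reads. The aligner named in the methods, Bowtie2, has no spliced alignment, so that a read across an exon junction may be lost. The submitters' processing notes name a different aligner, TopHat2, so whether such reads were lost is not known. Exons of at least a read's length made up a median of 55.4% of the transcript for members, 87.9% for protein-coding genes and 95.8% for *Col8a1* and *Col8a2*. Levels per length are therefore compared between genes only as a rough order.

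By mean level per kb of exon, *Col25a1* stood first (9.10 CPM per kb), followed by *Col6a1* (5.95), *Lamb2* (3.81), *Col8a2* (3.40), *Lamc1* (3.19) and *Col4a2* (2.99). The same levels were also divided by the length of exons of at least a read's length alone, with counts from all exons kept. *Col25a1* and *Col6a1* then kept the first and the second place, and *Col9a3* came next. Without control 3, *Col8a2* was at 1.93 CPM per kb and in place 8, and *Col9a3* was in place 5 by exons of at least a read's length. *Col25a1* codes for a membrane collagen of neurons, whose shed ectodomain is found in amyloid plaques. Its level was 119, 127 and 104 CPM in the 3 controls and 87.7, 132 and 137 in the OE libraries. The groups overlapped over their whole width, and the edgeR log2FC was 0.03 (SE 0.179, adjusted P = 0.958). Among the least abundant members, *Col10a1*, the collagen of growth plate cartilage, had 0, 8 and 17 counts in controls and 7, 27 and 9 in OE mice, and *Col28a1* had 0, 12 and 7 against 0, 9 and 28.

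**Figure D1:**
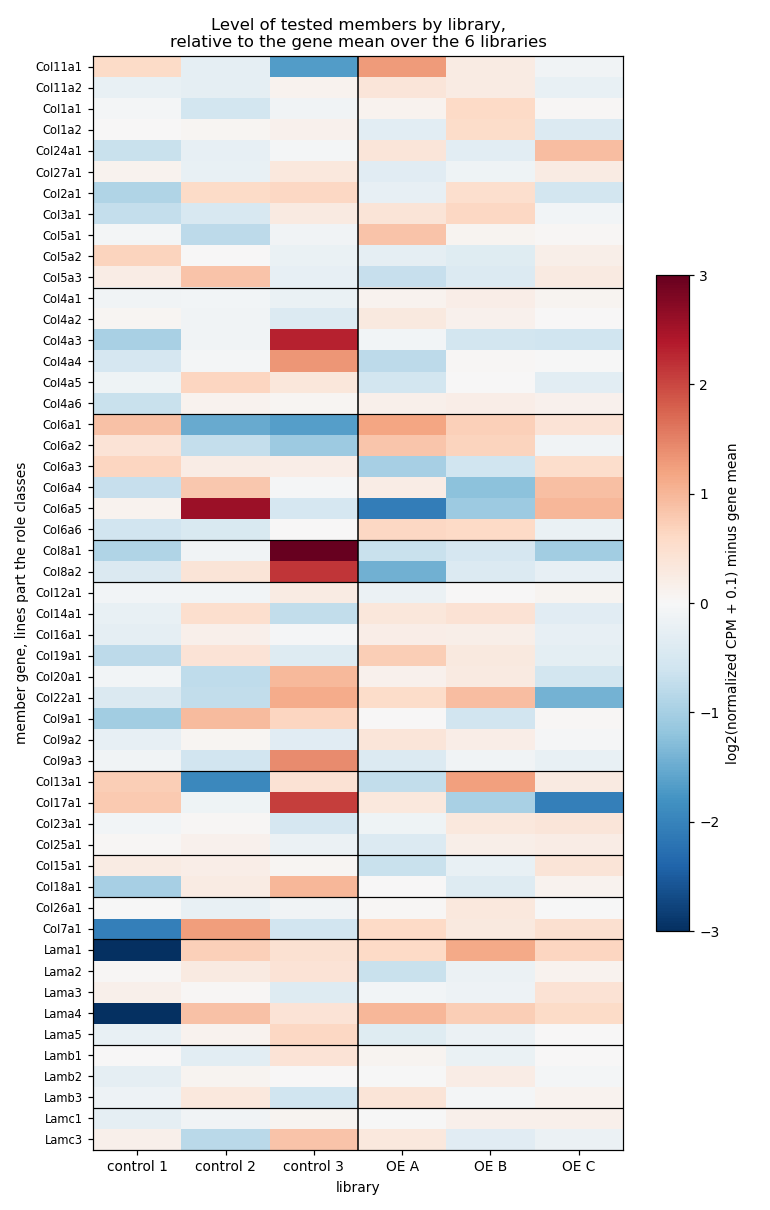
Heat map of log2(normalized CPM + 0.1) of 52 tested members in the 6 libraries, minus the gene's own mean; rows are genes, grouped by role class between the horizontal lines, columns are libraries, and the colour scale ends at 3 in either direction. Control 3 is darkest red for *Col8a1*, *Col8a2*, *Col4a3* and *Col17a1*, and control 1 is darkest blue for *Lama1* and *Lama4*.

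Type VIII collagen, built of the chains of *Col8a1* and *Col8a2*, forms short-chain networks and is best known from the membrane under the corneal endothelium. *Col8a1* (chr16:57624258-57754737, minus strand) was at 1.45, 2.61 and 27.1 CPM in controls 1, 2 and 3 and at 1.72, 1.93 and 1.30 in OE libraries A, B and C. Control 3 was 10.4 times the next library, and the other 5 lay together. The mean was 10.4 ± 14.5 CPM in controls and 1.65 ± 0.322 in OE mice (SD, n = 3 each), with an edgeR log2FC of -2.66 (SE 1.05, adjusted P = 0.314), past the thresholds before adjustment. Without control 3 the log2FC was -0.29 (edgeR adjusted P = 0.748). An exact permutation test of the 3 against 3 libraries, two-sided, gave p = 0.3, where 0.1 is the smallest that this design allows.

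*Col8a2* (chr4:126286793-126314330, plus strand) was at 7.99, 14.1 and 48.4 CPM in controls and at 3.92, 8.16 and 9.03 in OE libraries. Control 3 was again highest, at 3.42 times the next library, and control 1 lay below OE libraries B and C. The edgeR log2FC was -1.74 (SE 0.668, adjusted P = 0.309), and without control 3 it was -0.64 (adjusted P = 0.507). Over the 15 fits made, the adjusted P of *Col8a2* ran from 0.229 to 0.661 and that of *Col8a1* from 0.201 to 0.748. Leaving out any 1 OE library gave a similar size of both differences, but the unadjusted edgeR P was then over 0.05 for both genes, with a log2FC of -2.50 to -2.78 for *Col8a1* (edgeR adjusted P = 0.373 to 0.661) and of -1.45 to -1.95 for *Col8a2* (edgeR adjusted P = 0.297 to 0.661). Limma-voom did not call either gene (adjusted P = 0.518 for *Col8a1* and adjusted P = 0.362 for *Col8a2*).

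The 250 bases before the RefSeq start site of these genes are given because they are the members that passed the thresholds and were high together in 1 library. GC boxes, GGGCGG on either strand (CCGCCC on the strand shown), are in capitals. The regions are chr16:57754738-57754987 (minus strand) and chr4:126286544-126286793 (plus strand) of GRCm38.p6.
Col8a1 promoter: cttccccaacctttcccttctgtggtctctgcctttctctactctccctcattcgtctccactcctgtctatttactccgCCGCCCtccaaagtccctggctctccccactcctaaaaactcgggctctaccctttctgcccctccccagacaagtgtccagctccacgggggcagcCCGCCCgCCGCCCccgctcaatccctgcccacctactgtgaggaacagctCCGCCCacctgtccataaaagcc
Col8a2 promoter: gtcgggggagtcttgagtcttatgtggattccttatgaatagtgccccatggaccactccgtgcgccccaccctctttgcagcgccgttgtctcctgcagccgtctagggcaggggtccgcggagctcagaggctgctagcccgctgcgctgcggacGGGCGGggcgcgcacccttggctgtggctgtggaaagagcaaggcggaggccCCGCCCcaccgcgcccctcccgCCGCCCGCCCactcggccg

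Each holds 4 GC boxes, of which the last pair in *Col8a2* overlap. RefSeq promoter sequence was matched for 40 of the 55 members. Of those 40 genes, 23 hold a GC box in this window of any of their promoters, and 32.7% of all 32851 single promoters do. TAATCC, the core bound by OTX-type homeodomain proteins such as the choroid plexus factor *Otx2*, is in neither window, and of the 40 genes it was found for *Lamb2* alone, against 6.25% of all promoters. These are matches of letters and not measured sites. For both motifs members were counted by gene and all promoters singly, so the shares are not like for like.

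**Figure D2:**
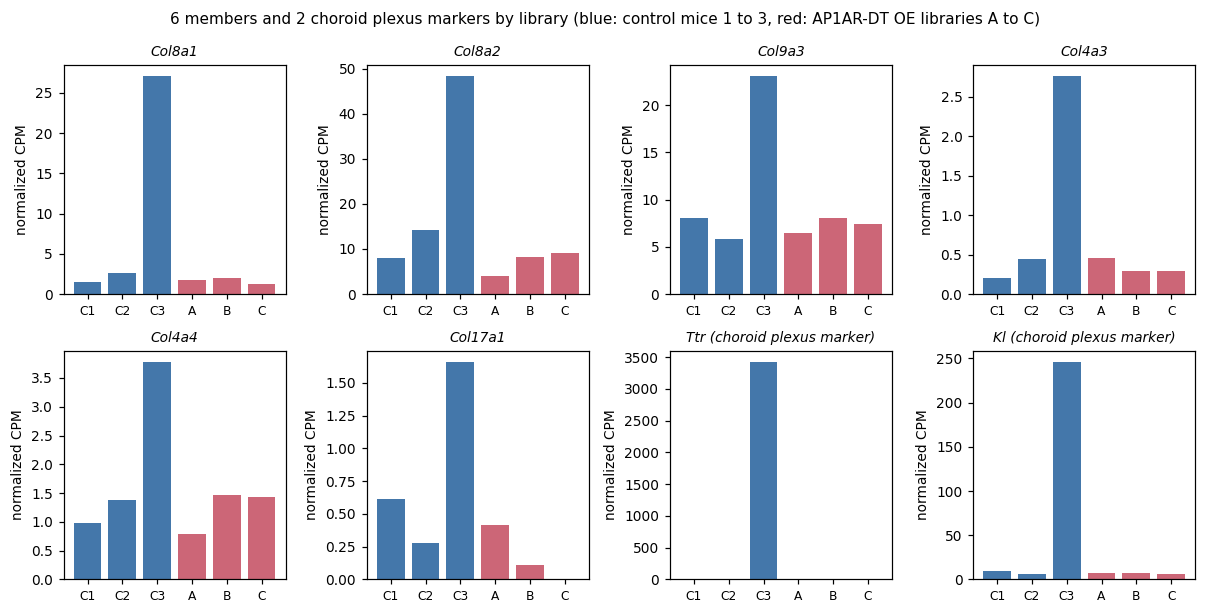
Bars give normalized CPM per library for the 6 members at least 2 times higher in control 3 than in any other library, and for the choroid plexus markers *Ttr* and *Kl*; blue bars are controls 1 to 3, red bars OE libraries A to C, and each panel has its own scale from 0. In every panel control 3 is the tallest bar, 10.4 times the next library for *Col8a1* and 2.58 times for *Col4a4*.

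Control 3 stood at least 2 times above every other library for 6 of 53 members (11.3%) and for 1.64% of all genes tested. Beside the type VIII chains these were *Col4a3*, *Col4a4*, *Col9a3* and *Col17a1*. The only other library with such a member was control 2, where *Col6a5*, a type VI chain, was 3.03 times the next. Control 3 gave the highest value for 16 of 53 members (30.2%), against 21.9% of all genes, and control 1 the lowest for 15 (28.3%), against 16.5%. The choroid plexus and ependymal markers were highest in the same library, and the summed level of the leptomeningeal markers was 407 CPM there against 71.2 to 163 elsewhere. Of the 15 leptomeningeal markers listed, however, 6 were highest in control 3 and 7 in OE library B, and *Igf2* (232 CPM there, at most 52.4 elsewhere) and *Igfbp2* (112 against 10.4 to 40.9), which choroid plexus epithelium also expresses, made up most of the sum. The part of these markers in the member differences was not tested.

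*Col9a3*, a chain of the fibril-associated type IX collagen, was at 8.01, 5.78 and 23.1 CPM in controls and 6.47, 7.99 and 7.41 in OE mice. Its edgeR log2FC was -0.75 (SE 0.487, adjusted P = 0.478) and turned to 0.09 without control 3. Exons of *Tcfl5*, a neighbouring gene, overlap 6.07% of its exon bases. Its partner *Col9a2* did not share the peak, with 5.14, 6.33 and 4.82 CPM in controls and 7.82, 7.01 and 5.95 in OE mice (log2FC 0.35, SE 0.186, adjusted P = 0.402). *Col17a1*, the hemidesmosome collagen of epithelia, had 25, 14 and 83 counts in controls and 22, 6 and 0 in OE mice, too few for a firm value (log2FC -2.27, SE 1.20, adjusted P = 0.401).

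Type IV collagen is the mesh of every basement membrane. Its 6 genes lie as 3 head-to-head pairs, with start sites 21 bases apart for *Col4a1* and *Col4a2* (chromosome 8), 72 for *Col4a3* and *Col4a4* (chromosome 1) and 1309 for *Col4a5* and *Col4a6* (chromosome X). Their summed level was 36.1, 36.4 and 36.2 CPM in controls and 41.7, 41.3 and 38.1 in OE mice, so that the groups did not overlap. Each OE library was above each control by a small margin, set mainly by the first pair.

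*Col4a1* and *Col4a2* code for the chains present in every vessel wall. *Col4a1* was at 12.3, 12.3 and 11.5 CPM in controls and 14.1, 15.1 and 14.0 in OE mice (12.04 ± 0.473 and 14.4 ± 0.606, SD, n = 3 each). The OE libraries were all higher, with an edgeR log2FC of 0.26 (SE 0.115, adjusted P = 0.341). *Col4a2* was at 20.3, 18.2 and 14.7 CPM in controls and 24.0, 21.4 and 19.9 in OE mice, where OE library C fell within the control range (log2FC 0.30, SE 0.152, adjusted P = 0.393). With a correction for transcript length both genes passed the thresholds (log2FC 0.35, adjusted P = 0.298 for *Col4a1* and log2FC 0.38, adjusted P = 0.334 for *Col4a2* by edgeR). A correction for GC content instead brought both near 0 (log2FC 0.06, adjusted P = 0.873 for *Col4a1* and log2FC 0.04, adjusted P = 0.949 for *Col4a2* by edgeR). The ratio of the pair, *Col4a1* counts over *Col4a2* counts, was between 0.589 and 0.780 in the 6 libraries. Endothelial markers had a summed level of 165, 200 and 217 CPM in controls and 222, 266 and 207 in OE mice, and the groups overlapped. Of the 14 markers 2 (14.3%) passed the thresholds upward (*Cldn5* and *Ly6c1*) and none downward, with a median log2FC of 0.27. Pericyte and smooth muscle markers had a median log2FC of 0.29, with 1 of 10 (10%) passing upward (*Vtn*) and none downward. Of all genes 12.2% passed in either direction and 5.1% upward. After correction for GC content the 2 medians were 0.22 and 0.23. *Cldn5* and *Ly6c1* then still passed (log2FC 0.50 and 0.56), while *Vtn*, at a log2FC of 0.42, no longer met the P threshold. The part of vessel content in the *Col4a1* and *Col4a2* values was not tested.

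*Col4a3* and *Col4a4* make a collagen of specialised membranes such as that of the kidney glomerulus. *Col4a3* was at 0.20, 0.44 and 2.76 CPM in controls and 0.45, 0.30 and 0.29 in OE mice, control 3 standing 6.11 times above the next library. *Col4a4* was at 0.98, 1.39 and 3.78 CPM in controls and 0.79, 1.47 and 1.43 in OE mice. Their log2FC of -1.71 (SE 0.942) and -0.74 (SE 0.548) by edgeR turned to 0.12 and 0.06 without control 3. *Col4a5* and *Col4a6*, the pair of smooth muscle and epithelial membranes, did not follow control 3. *Col4a5* was at 1.79, 3.17 and 2.54 CPM in controls and 1.32, 2.00 and 1.56 in OE mice (log2FC -0.62, SE 0.305, adjusted P = 0.376). *Col4a6* was at 0.52, 0.94 and 0.92 CPM in controls and 0.98, 1.02 and 0.97 in OE mice (log2FC 0.32, SE 0.369, adjusted P = 0.706). The count ratio of *Col4a5* to *Col4a6* was 2.76 to 3.48 in controls and 1.35 to 1.96 in OE mice and did not overlap between groups, a comparison chosen after the values were seen.

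**Figure D3:**
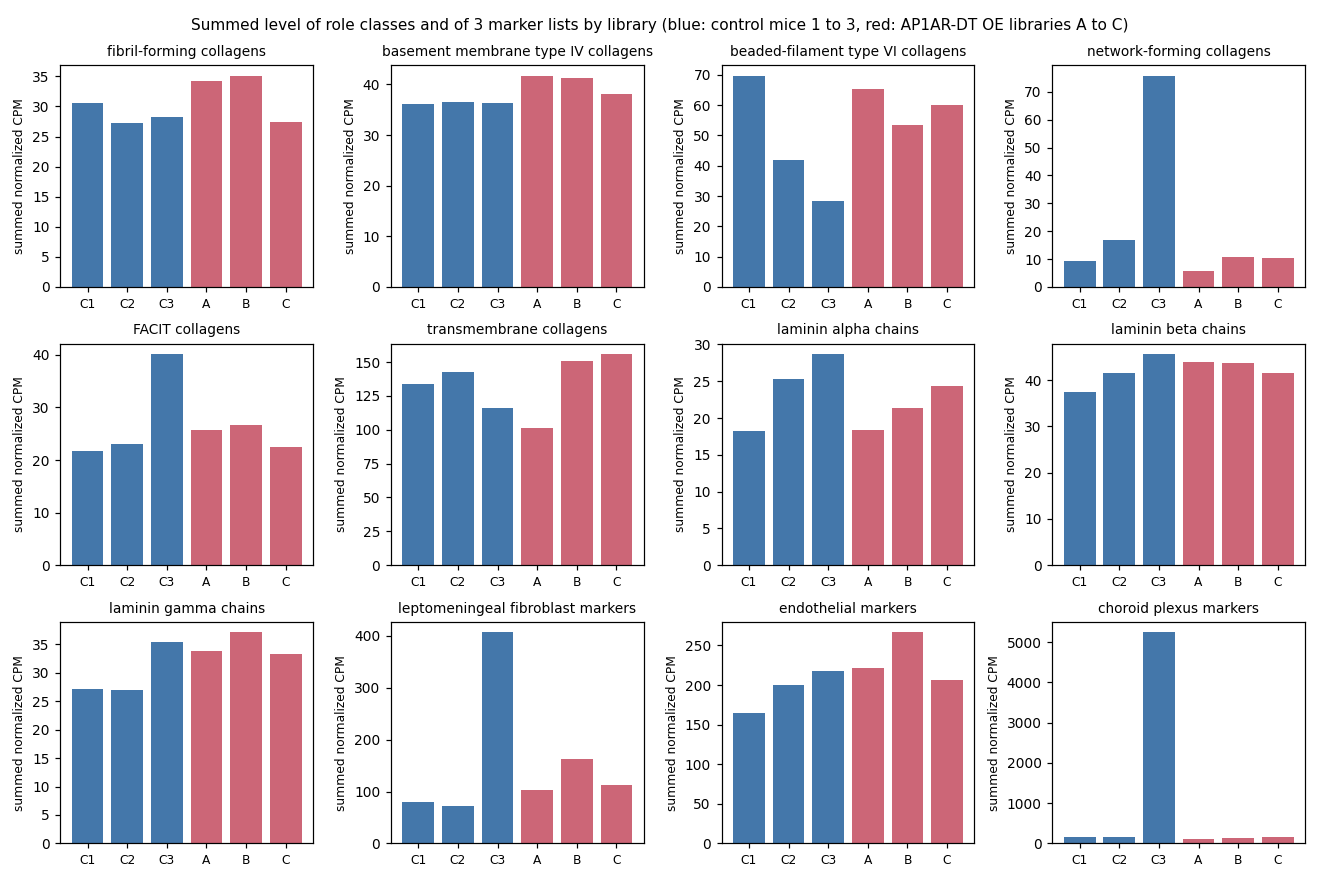
Summed normalized CPM per library of 9 role classes of collagen and laminin genes and of 3 marker lists; blue bars are controls 1 to 3, red bars OE libraries A to C, each panel with its own scale from 0. Network-forming collagens peak in control 3 (75.8 CPM) as choroid plexus markers do (5239 CPM), while the type IV sum lies between 36.1 and 41.7 CPM throughout. Within that sum *Col4a3* and *Col4a4* were highest in control 3, and *Col4a1* and *Col4a2* were lowest there.

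Type VI collagen forms beaded filaments around vessels and in meninges. *Col6a1*, the most abundant of them, was at 37.3, 7.01 and 6.37 CPM in controls and 45.7, 33.3 and 26.8 in OE mice. Control 1 lay among the OE libraries, and controls 2 and 3 lay well below. The edgeR log2FC was 1.06 (SE 0.677, adjusted P = 0.473). It was 2.40 without control 1 (adjusted P = 0.105) and 0.69 without control 3 (adjusted P = 0.656). *Col6a2* is its neighbour on chromosome 10, with a start site 102538 bases away on the same strand. It followed with 7.03, 3.17 and 2.42 CPM in controls and 9.41, 8.50 and 4.92 in OE mice (log2FC 0.86, SE 0.437, adjusted P = 0.389). Its log2FC was 1.44 without control 1 (adjusted P = 0.233) and 0.59 without control 3 (adjusted P = 0.557). DESeq2 and limma-voom each called *Col6a2* upward at the thresholds (adjusted P = 0.229 and adjusted P = 0.314), and limma-voom also called *Col6a1* (adjusted P = 0.284). The count ratio of *Col6a1* to *Col6a2* ran from 2.21 to 5.45.

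*Col6a3*, the third chain of the classical heterotrimer, went another way, with 22.0, 16.6 and 16.2 CPM in controls and 6.99, 9.29 and 20.5 in OE mice (edgeR log2FC -0.57, SE 0.387, adjusted P = 0.497). OE library C lay inside the control range, and without it the log2FC was -1.15 (edgeR adjusted P = 0.197). The 3 chains of one heterotrimer thus had no common order over the libraries. *Col6a5*, a long alternative chain, was at 1.97, 11.4 and 1.26 CPM in controls and 0.36, 0.82 and 3.77 in OE mice. It shares 2.42% of its 100-base stretches with another member, *Col6a6*. *Col6a4* and *Col6a6*, the related chains, differed by a log2FC of 0.04 (SE 0.615) and 0.86 (SE 0.508) by edgeR.

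The fibril-forming collagens are those of connective tissue, made in the brain by meningeal and perivascular fibroblasts. Their summed level was 30.7, 27.3 and 28.2 CPM in controls and 34.3, 35.1 and 27.4 in OE mice, so the groups overlapped. *Col1a1*, a chain of type I collagen, was at 2.29, 1.59 and 2.20 CPM in controls and 2.58, 3.65 and 2.44 in OE mice, without overlap (log2FC 0.51, SE 0.270, adjusted P = 0.399 by edgeR). Its partner *Col1a2* did not share this, with 7.79, 7.97 and 8.41 CPM in controls and 6.13, 11.3 and 5.76 in OE mice (log2FC -0.06, SE 0.272). *Col5a1*, a chain of the type V collagen that limits fibril width, was at 1.97, 1.14 and 1.92 CPM in controls and 3.81, 2.17 and 2.10 in OE mice, also without overlap (log2FC 0.68, SE 0.351, adjusted P = 0.392). Of the other fibril-forming genes, *Col3a1* and *Col11a1* had a log2FC of 0.66 and 0.81 and *Col5a2* and *Col5a3* of -0.35 and -0.59, none with an edgeR P under 0.05. *Col11a2*, *Col2a1*, *Col24a1* and *Col27a1*, of cartilage-type and other minor fibrils, had a log2FC of 0.26 (SE 0.220), -0.31 (SE 0.589), 0.97 (SE 0.657) and -0.14 (SE 0.247), and *Col24a1* was the least abundant member per kb at 0.037 CPM.

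Of the remaining collagens, *Col23a1*, a transmembrane collagen, was at 13.7, 14.9 and 10.2 CPM in controls and 13.1, 18.0 and 18.5 in OE mice (log2FC 0.36, SE 0.200, adjusted P = 0.423). The multiplexins *Col15a1* and *Col18a1*, proteoglycan collagens of vascular basement membranes that carry anti-angiogenic fragments, had a log2FC of -0.28 (SE 0.288) and -0.37 (SE 0.460) by edgeR. *Col18a1*, which choroid plexus also expresses, was at 2.38, 5.74 and 9.71 CPM in controls and 4.88, 3.67 and 5.24 in OE mice, and its log2FC was 0.19 without control 3. *Col7a1*, the collagen of skin anchoring fibrils, was listed at 0 in control 1 and at 0.88 and 0.18 CPM in controls 2 and 3, against 0.53, 0.41 and 0.48 in OE mice. *Col26a1* had a log2FC of 0.24 (SE 0.188) and *Col12a1*, a fibril-associated collagen, of -0.06 (SE 0.184) by edgeR. The other fibril-associated collagens, which lie on the surface of fibrils or in membrane zones, spread to both sides of 0. *Col14a1*, *Col16a1*, *Col19a1* and *Col22a1* had a log2FC of 0.28 (SE 0.547), 0.10 (SE 0.243), 0.50 (SE 0.446) and 0.11 (SE 0.943). *Col9a1* and *Col20a1* had one of -0.69 (SE 0.696) and -0.27 (SE 0.553, but 0.43 without control 3), and all 6 overlapped between groups. *Col13a1*, a transmembrane collagen of the neuromuscular junction, was listed at 0 in control 2 and had 7 to 43 counts in the other libraries (log2FC 0.43, SE 1.20).

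The laminins had a smaller spread within groups than the collagens (median SD on the log2 scale 0.338 and 0.596) and a median log2FC of 0.13. *Lamb2* and *Lamc1* code for the beta and gamma chains most abundant in these libraries. *Lamb2* was at 19.1, 24.6 and 23.4 CPM in controls and 22.9, 26.8 and 22.1 in OE mice (log2FC 0.10, SE 0.140, adjusted P = 0.756 by edgeR). *Lamc1*, the gamma chain of most basement membranes, was at 21.6, 24.4 and 27.8 CPM in controls and 25.9, 29.3 and 29.1 in OE mice (log2FC 0.19, SE 0.127, adjusted P = 0.488). *Lamb1* was at 14.6, 11.6 and 19.5 CPM in controls and 15.4, 12.7 and 14.8 in OE mice (log2FC -0.09, SE 0.203). For each of these 3 genes the groups overlapped.

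The alpha chain sets which cells and receptors a laminin serves. *Lama2*, the chain of the laminin laid down by pericytes, fibroblasts and astrocytes, was at 6.46, 7.59 and 8.41 CPM in controls and 3.90, 5.56 and 6.77 in OE mice, where OE library C lay above control 1 (log2FC -0.47, SE 0.234, adjusted P = 0.382 by edgeR). *Lama5*, a chain of mature vessels and of epithelia, was at 8.06, 10.3 and 14.8 CPM in controls and 7.39, 8.44 and 9.62 in OE mice, highest in control 3 (log2FC -0.38, SE 0.240, adjusted P = 0.470). It passed the thresholds with a correction for GC content (log2FC -0.61, adjusted P = 0.548 by edgeR) and was at -0.10 without control 3. *Lama3*, an epithelial chain, had a log2FC of 0.13 (SE 0.259).

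*Lama1*, the chain of meningeal and embryonic laminin, and *Lama4*, the chain of endothelial laminin, were both listed at 0 in control 1 and at 1.50 to 2.49 and 1.52 to 2.32 CPM in the other 5 libraries. In counts these are 75 to 134 for *Lama1* and 76 to 123 for *Lama4*. Only 7 genes of the table were at 0 in control 1 with at least 50 counts in every other library, and between 1 and 5 genes were at 0 in this way in each of the other libraries. With control 1 at 0 the edgeR log2FC was 0.82 (SE 1.04) for *Lama1* and 0.69 (SE 1.05) for *Lama4*. The rarer chains *Lamb3* and *Lamc3*, of epithelial and retinal laminins, had a log2FC of 0.26 (SE 0.274) and -0.27 (SE 0.436), and 6.27% of the exon bases of *Lamc3* lie within another gene, *Gm13441*.

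**Figure D4:**
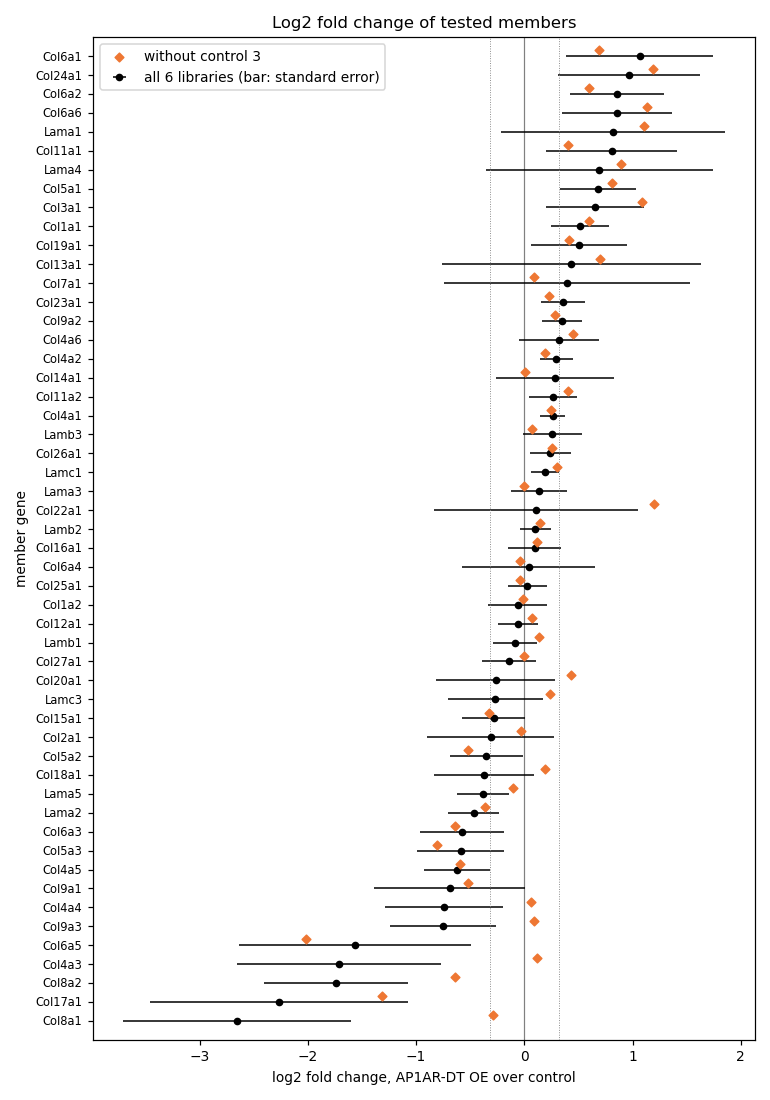
Log2FC of 52 tested members (OE over control, edgeR), sorted by size; black points with bars are the values and standard errors from all 6 libraries, orange diamonds the values without control 3, and dotted lines mark a log2FC of 0.32 in either direction. *Col8a1* lies lowest at -2.66 and moves to -0.29 without control 3.

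Over all members, 30 of 53 had a log2FC above 0 and 23 below, with a median of 0.10 beside -0.014 for all genes tested. By edgeR 2 of 53 (3.77%, *Col8a1* and *Col8a2*) passed the thresholds, both down, beside 12.2% of all genes (5.1% up and 7.15% down). Without control 3 none of 54 passed or had an edgeR P under 0.05, beside 10.8% of all genes (5.64% up and 5.16% down). DESeq2 called 4 of 55, *Col6a2* up and *Col8a1*, *Col8a2* and *Col17a1* down, beside 9.7% of all genes (4.28% up and 5.43% down). By contrast limma-voom called 2 of 53, *Col6a1* and *Col6a2* up, beside 12.6% (5.39% up and 7.17% down). At an adjusted P under 0.05 the count was 0 by edgeR, by DESeq2 and by limma-voom, beside 0.0275%, 0.948% and 0.0183% of all genes. An unadjusted P under 0.05 was reached by 2, 4 and 2 members, beside 15.1%, 11% and 15.7% of all genes. The 2 groups did not overlap for 4 of 53 members (7.55%), all higher in OE mice (*Col1a1*, *Col4a1*, *Col4a6* and *Col5a1*), beside 22.4% of all genes, 10.4% up and 12% down. Members were both less abundant than most genes (median 3.25 CPM against 10.98) and less precisely measured (median SE of the log2FC 0.436 against 0.204).

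Triplet-repeat coding sequence is rich in G and C, since glycine and proline codons begin with GG and CC. The median GC content of the members' longest transcripts was 55.1% against 49.4% for all genes tested, and 47 of 53 members lay in the upper 5 deciles, 18 of them in the top. Over all genes the median log2FC rose with GC content, from -0.30 in the lowest decile to 0.22 in the highest, so the value to set beside a GC-rich gene is above 0. With each library corrected for GC content the median of the members was -0.037, and 3 members passed the thresholds downward (*Col8a1*, *Col8a2* and *Lama5*), beside 4.41% of all genes downward, 2.76% upward and 7.17% in either direction. The direction of *Col11a2*, *Col16a1*, *Col26a1*, *Lamb2* and *Col6a4* turned from above to below 0.

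**Figure D5:**
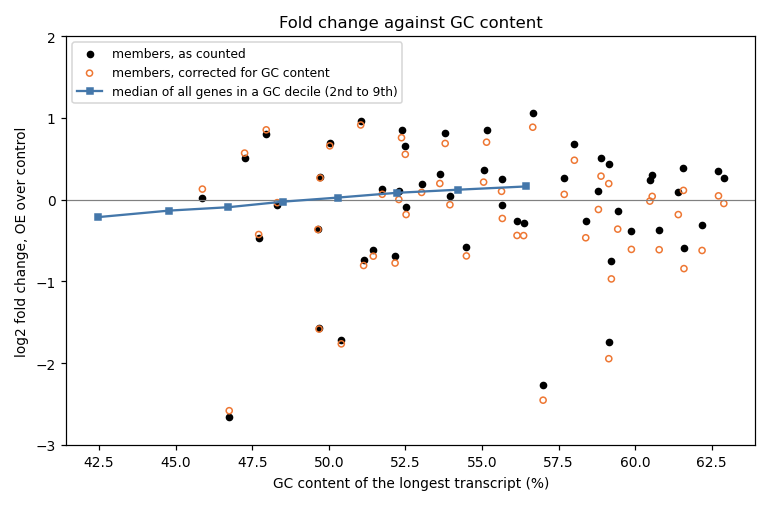
Log2FC (OE over control, edgeR) against transcript GC content in percent; black points are 52 tested members as counted, open orange circles the same genes after correction for GC content, and the blue line joins the medians of all genes in the second to the ninth GC decile. The line climbs with GC content, and the median GC content of all tested members is 55.1%.

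Genes that build, bind or cut collagen and laminin were examined through 5 lists. Of 29 tested genes of collagen biosynthesis 2 passed the thresholds upward and 1 downward (edgeR). *Colgalt1*, which adds galactose to hydroxylysine, was at 35.6, 30.7 and 32.2 CPM in controls and 45.1, 41.8 and 39.8 in OE mice (log2FC 0.36, SE 0.104, adjusted P = 0.295). *P3h1*, a prolyl 3-hydroxylase, was the other upward gene (log2FC 0.49, SE 0.194), and *P4ha3*, a prolyl 4-hydroxylase subunit, was lower (log2FC -0.63, SE 0.223). Lysyl oxidases, the chaperone *Serpinh1* and the other modifying enzymes did not pass.

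Of 17 other basement membrane genes 2 passed upward and 1 downward. *Nid1*, which links laminin to type IV collagen, was at 5.11, 4.50 and 5.89 CPM in controls and 5.85, 7.72 and 10.5 in OE mice (log2FC 0.63, SE 0.243, adjusted P = 0.309 by edgeR), and the groups overlapped by a narrow margin. *Pxdn*, the peroxidase that cross-links type IV collagen, had a log2FC of 0.33 (SE 0.128). *Sparc*, a collagen-binding protein of astrocytes and vessels, was at 632, 1288 and 831 CPM in controls and 585, 490 and 662 in OE mice, where OE library C lay above control 1 (log2FC -0.66, SE 0.259, adjusted P = 0.312). None of 15 tested receptors of collagen and laminin passed. *Itgb1*, the beta chain shared by most integrin receptors of both families, had an edgeR P under 0.05 at a log2FC of -0.30, under the fold threshold.

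Of 11 tested proteases and inhibitors 2 passed in each direction. *Mmp24*, a membrane-type metalloprotease of neurons, was at 44.8, 43.9 and 42.6 CPM in controls and 64.7, 70.6 and 62.2 in OE mice, well apart (log2FC 0.59, SE 0.0911, adjusted P = 0.295 by edgeR). *Mmp17*, a related enzyme, was the other upward gene (log2FC 0.64, SE 0.223). *Timp3*, a matrix-bound inhibitor, was at 202, 207 and 275 CPM in controls and 158, 147 and 165 in OE mice (log2FC -0.54, SE 0.136, adjusted P = 0.295), and *Mmp14* was lower (log2FC -0.59, SE 0.191). Of 22 tested genes of other interstitial matrix *Bgn*, the proteoglycan biglycan, passed upward (10.6, 7.47 and 8.83 CPM against 15.2, 14.8 and 11.2, log2FC 0.62, SE 0.190), and *Postn*, *Prelp* and *Fbn2* passed downward. *Postn*, the matricellular protein periostin, was at 1.57, 3.59 and 5.41 CPM in controls and 1.04, 0.93 and 1.31 in OE mice (log2FC -1.69, SE 0.452), and *Prelp* was highest in control 3 at 99.4 CPM. No gene of the 5 lists had an adjusted P under 0.05, and the shares called, 10.3%, 17.6%, 0%, 36.4% and 18.2%, stood beside 12.2% of all genes. After correction for GC content *Colgalt1*, *P3h1* and *Pxdn* fell under the fold threshold (log2FC 0.230, 0.319 and 0.233). *Mmp17* then had an edgeR P of 0.053 (log2FC 0.47). The other genes of the 5 lists given above as passing still passed.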

How the data were processed

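The RNA was extracted with TRIzol and made into TruSeq libraries. According to the methods, the authors checked reads with FastQC, mapped them with Bowtie2 at default settings to GRCm38 and derived gene values with StringTie and its script from GENCODE annotation. The submitters' processing notes instead name TopHat2 2.0.4, SAMtools, HTSeq, Cuffdiff, edgeR 2.6.12 and the build mm9, and the conflict could not be settled. The deposited values are raw whole-number counts per gene, not normalized by the authors. Whether strand was used is not given in the sources used here, and counts derived from coverage are not whole read pairs. Columns holding the authors' own comparison (mean, fold change, its error, statistic and P-values) were not used. Columns of other samples numbered 0.

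Counts of all genes were fitted in R 4.3.3 with edgeR 4.0.16 (filterByExpr, TMM factors, quasi-likelihood F-test, two-sided, Benjamini-Hochberg over all genes tested), the group as the only term. Normalized CPM use the TMM factors. The labels do not say that mice came from separate cages or days, so P-values measure the spread between these libraries. Alternatives were DESeq2 1.42.0, limma-voom (limma 3.58.1), size factors, library totals, no filter, at least 10 counts in every library, corrections for GC content and transcript length (splines with 5 degrees of freedom, as offsets) and each library left out. The fit was tested on simulated data. Gene structure came from GENCODE vM21 on GRCm38, promoters from RefSeq (GRCm38.p6). Tables and plots used Python 3.11.15, pandas 2.3.3 and matplotlib 3.10.9.

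Named members were those that passed the thresholds, up to 3 of each role class with the highest level per kb, the 3 with the widest range between libraries and the head-to-head pairs. Companion genes were by rule up to 2 in each direction per list, and markers the most abundant, at most 2 per list. Members, companion genes and markers outside these rules were named after their values were seen. The members, lists, marker lists and tests were chosen with earlier results of these data known. The values of 1 member are not reported here.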

Additional observations from a re-analysis of the deposited data

How the results depend on the processing

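The count of members passing the thresholds upward, 0 by edgeR, was 1 by DESeq2, 2 by limma-voom and 2 with the length correction. The downward count, 2 by edgeR, was 0 by limma-voom. With libraries left out in turn, the upward count ran from 0 to 3 and the downward count from 0 to 6, both highest without control 1. The companion lists, also with libraries left out, ran from 0 to 5 for collagen biosynthesis, 0 to 3 for other basement membrane, 0 to 4 for receptors (1 with the GC correction), 2 to 3 for proteases and inhibitors and 1 to 7 for interstitial matrix.
The median log2FC of all members was -0.037 with the GC correction and ran from -0.0053 to 0.18 with libraries left out. That of collagens was -0.030 by limma-voom, -0.042 with the GC correction and -0.067 to 0.18 with libraries left out.
Directions turned with the GC correction for *Col11a2* (-0.047), *Col16a1* (-0.18), *Col26a1* (-0.018), *Lamb2* (-0.12) and *Col6a4* (-0.063), and with the length correction for *Col1a2* (0.0033). Among the members named by rule, those that turned with 1 library left out had these ranges: *Col16a1* -0.0053 to 0.24, *Col18a1* -0.75 to 0.19, *Col1a2* -0.44 to 0.12, *Col25a1* -0.076 to 0.21, *Col4a3* -2.21 to 0.12, *Col4a4* -1.07 to 0.062, *Col7a1* -0.17 to 2.31, *Col9a3* -1.09 to 0.093, *Lama3* -0.061 to 0.25, *Lamb1* -0.24 to 0.14 and *Lamc3* -0.60 to 0.23. Of the other members, *Col20a1* (0.43), *Col12a1* (0.066), *Col27a1* (0.0010) and *Col6a4* (-0.040) turned without control 3. The mean level per kb without control 3 was an alternative chosen after seeing the data. Beyond the values of control 3 given with the results, the cause was not tested. The adjusted-P count of members was 0 in all 15 fits.
No paired analysis was possible because the groups share only the replicate number 3 in the labels and the OE columns carry no mouse number. With 3 libraries a group the median SE of a member's log2FC was 0.436, against 0.204 over all genes tested.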

Other observations

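The marker lists of other cell types are given here by their median log2FC (OE over control, edgeR), as values that belong to no comparison of the members. It was 0.46 for 9 markers of cortical excitatory neurons, 0.20 for 6 of GABAergic neurons and 0.96 for 7 of striatal neurons. It was -0.093 for 7 astrocyte markers, -0.10 for 6 of oligodendrocyte precursors, -0.35 for 6 of oligodendrocytes and 0.15 for 7 of microglia. It was 0.37 for 4 tested markers of perivascular macrophages, 0.043 for 5 of red blood cells, -0.88 for 6 ependymal markers and 0.25 for 15 of leptomeningeal fibroblasts. Without control 3 the median was 1.28 for cortical excitatory, 0.21 for GABAergic and 0.68 for striatal neurons. It was then -0.057 for astrocytes, 0.036 for oligodendrocyte precursors, -0.024 for oligodendrocytes and 0.20 for microglia. Perivascular macrophages were at 0.40, red blood cells at 0.31, ependymal markers at -0.61 and leptomeningeal fibroblasts at 0.84 without it. The oligodendrocyte markers, a sign of white matter in the piece, summed to 10643 CPM in control 3 and to between 5048 and 6430 in the other libraries. The GABAergic markers were lowest in control 3, at 1011 CPM against 1699 to 2085.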
